A study of Macaca mulatta with 20 samples.

Results

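The genes described here encode 5 subunits of the NADPH oxidase of phagocytes, CYBA, CYBB, NCF1, NCF4 and RAC2, measured in rhesus macaque blood before and after irradiation of the thorax. They were chosen by their gene symbol on the array, and a probe was kept if it was well above background on at least 5 of 20 arrays. All 5 genes passed, out of 15929 genes with a tested probe, and all 10 of their probes passed, out of 19961 tested. Each of the 10 probes was in fact well above background on all 20 arrays and saturated on 0 of them.

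Blood RNA from which globin mRNA had been removed was read on 20 Agilent arrays of the human genome, in 1 color. Of these, 5 arrays held blood drawn pre-irradiation and 5 each held blood drawn 2, 5 and 30 days after 10 Gy of X-rays to the whole thorax, always whole blood of male macaques of Chinese origin. According to the labels the blood came from 8 animals, so not every animal is on every group's arrays, and the sources used here do not tie an array to an animal. Arrays that carry the same replicate number were treated as pairs, since the methods describe comparisons with matched controls, with RNA pooled from a pair of animals in 1 case that the labels do not identify. There was no unirradiated group kept over the same 30 days, so time and irradiation cannot be told apart. Levels are log2 processed signals minus the 75th percentile of the array.

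The phagocyte oxidase moves electrons from NADPH across a membrane onto oxygen, and the superoxide it makes is used by neutrophils and monocytes to kill microbes. Its catalytic core is a membrane heterodimer, cytochrome b558, formed by CYBB (gp91phox) and CYBA (p22phox). In a resting cell the organizer NCF1 (p47phox) and NCF4 (p40phox) wait in the cytosol, and on stimulation they join the membrane core together with the GTPase RAC2. Inherited loss of several of these subunits causes chronic granulomatous disease, in which phagocytes engulf bacteria and fungi but fail to kill them.

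The probes are 60 bases long and were designed on human transcripts, so their sequences show what the macaque RNA had to match. All positions are on the human build hg19, as the array annotation gives them. All 5 symbols also occur among the macaque genes in RefSeq. The 4 NCF1 probes, 1 each for CYBA and NCF4, and the RAC2 probe that crosses a splice junction are shown 5′ to 3′. The CYBB probe and RAC2 probes 1 and 3 are not shown, although the main values of CYBB and RAC2 below come from the CYBB probe and RAC2 probe 1. Capitals mark the 21 bases that probes 2 and 3 of NCF1 share.

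CYBA: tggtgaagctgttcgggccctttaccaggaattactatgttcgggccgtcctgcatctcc

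NCF1 probe 1: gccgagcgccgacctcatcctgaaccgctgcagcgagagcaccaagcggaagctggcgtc

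NCF1 probe 2: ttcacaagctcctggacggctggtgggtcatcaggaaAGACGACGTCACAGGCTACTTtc

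NCF1 probe 3: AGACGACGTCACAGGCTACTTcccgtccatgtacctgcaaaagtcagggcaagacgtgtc

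NCF1 probe 4: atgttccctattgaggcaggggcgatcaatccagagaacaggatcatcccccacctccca

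NCF4: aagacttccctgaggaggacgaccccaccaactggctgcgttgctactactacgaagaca

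RAC2 probe 2: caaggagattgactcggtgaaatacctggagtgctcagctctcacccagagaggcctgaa

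The CYBA probe lies at chr16:88713164-88713223 on the minus strand and the NCF4 probe at chr22:37271750-37271809 on the plus strand. NCF1 probes 1, 3 and 4 lie on the plus strand at chr7:74203435-74203494, chr7:74202331-74202390 and chr7:74193443-74193502. NCF1 probe 2 is placed over 2742 bases, chr7:74199612-74202353, which is wider than its own 60 bases, so it crosses a splice junction. RAC2 probe 2 likewise spans 4487 bases on the minus strand, chr22:37622795-37627281. The CYBB probe is at chrX:37672561-37672620, RAC2 probe 1 at chr22:37621452-37621511 and RAC2 probe 3 at chr22:37636848-37636907, the last designed on a separate cDNA record and not on the RefSeq transcript.

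NCF1 has near-identical copies in the human genome, among them the pseudogene NCF1B. In the array annotation all 4 NCF1 probes also list a noncoding RefSeq record, and probes 1 and 3 list the transcript of NCF1B. The NCF1 signal therefore cannot be split from that of its copies, and how many copies the macaque transcripts represent was not analysed here. The 4 NCF1 probes followed each other closely over the arrays, with Pearson r between 0.960 and 0.995 over 20 arrays (a description, since arrays of 1 animal are not independent). Of the 3 RAC2 probes, probes 1 and 2 gave r = 0.59, and probe 3 gave 0.07 with probe 1 and 0.13 with probe 2, so probe 3 did not follow the other RAC2 probes.

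Day 2 against pre-irradiation asks which transcripts had moved soon after exposure. The cytosolic subunits NCF1 and NCF4 and the membrane subunit CYBA lay above their pre-irradiation levels in most pairs, by 0.69, 0.84 and 0.48 on the log2 scale for the main probes, whereas CYBB and RAC2 lay close to theirs. None of the 10 probes passed the cutoffs of the study, applied here in limma (p under 0.005 with an FDR under 10%), which 0.0601% of all tested probes passed. The paper applied its cutoffs in BRB Array Tools and reported many more genes at each day, so the calls here are not those of the paper. The yield also depended on the input. With the log2 values that the authors deposited for fewer probes, 327 of 5653 were called at day 2. No member was among them, but those values cover only 6 of the 10 member probes. The main probes of CYBB and RAC2 are not covered and so could not be called. The smallest adjusted p of a member probe was 0.204. At an unadjusted p under 0.05, 6 of the 10 probes (all 4 of NCF1, and those of NCF4 and CYBA, thus 3 of the 5 genes) were higher and 0 were lower, beside 8.47% of all tested probes that were higher at that p. The 4 NCF1 probes report 1 transcript pool and are not 4 observations.

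**Figure D1:**
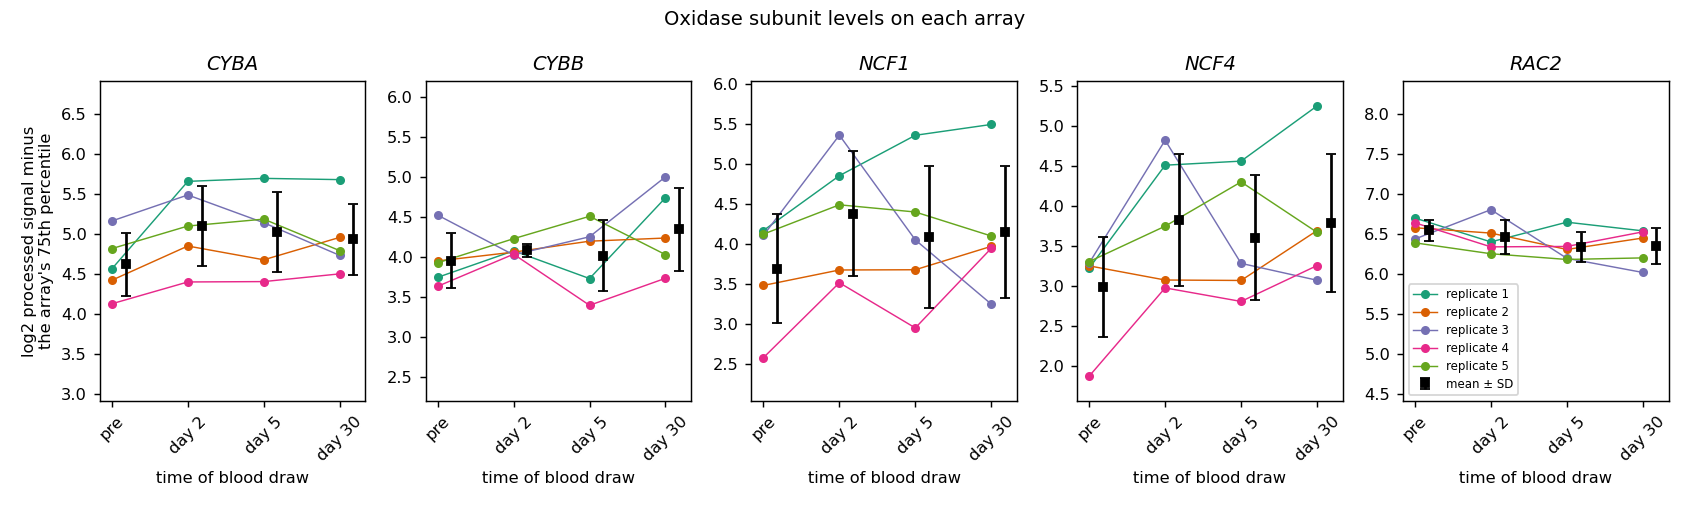
Level of the main probe of each subunit on every array, as log2 processed signal minus the array's 75th percentile (y axis, the same 4-unit span in each panel), by time of the blood draw (x axis). Colored lines join arrays of the same replicate number, and black squares give the mean ± SD of 5 arrays. NCF1 and NCF4 spread widely within each group, and RAC2 stayed between 6.02 and 6.80 on all 20 arrays.

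CYBB, the catalytic subunit that carries the electrons, read 3.74, 3.95, 4.52, 3.63 and 3.92 on pre-irradiation arrays 1 to 5. At day 2 the 5 arrays read 4.08, 4.06, 4.02, 4.03 and 4.23. These day 2 values sat in a narrow band inside the pre-irradiation range (4.08 ± 0.08 against 3.95 ± 0.34, SD, n = 5). At day 5 CYBB read 3.73, 4.20, 4.25, 3.39 and 4.51, and at day 30 it read 4.74, 4.23, 5.00, 3.73 and 4.03. The means of day 5 and day 30 were 4.02 ± 0.45 and 4.35 ± 0.52. The groups overlapped at each time. The log2 fold change was 0.13 at day 2 (SE 0.18), 0.06 at day 5 (SE 0.17) and 0.39 at day 30 (SE 0.19), with adjusted p-values from limma of 0.751, 0.916 and 0.330. Day 30 was the time at which CYBB was higher in 5 of 5 pairs, and 2 of its day 30 arrays, replicates 1 and 3, exceeded every pre-irradiation array. At day 5 the sign of the CYBB difference depended on the scaling: quantile normalization gave -0.02, and scaling by array medians gave -0.06.

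CYBA, the partner that stabilizes CYBB in the membrane and offers the docking site for NCF1, read 4.56, 4.42, 5.16, 4.13 and 4.82 on the pre-irradiation arrays. At day 2 it read 5.66, 4.85, 5.49, 4.40 and 5.10. Each day 2 array exceeded its own pair, by 0.27 to 1.09, but the groups overlapped, and only replicates 1 and 3 exceeded all 5 pre-irradiation arrays. At day 5 CYBA read 5.70, 4.68, 5.14, 4.41 and 5.19, and at day 30 it read 5.68, 4.96, 4.73, 4.50 and 4.79. The group means were 4.62 ± 0.39 before irradiation and 5.10 ± 0.50, 5.02 ± 0.50 and 4.93 ± 0.45 at the 3 days (SD, n = 5). The log2 fold change was 0.48 at day 2 (SE 0.17, adjusted p = 0.272 from limma), 0.40 at day 5 (SE 0.19, adjusted p = 0.480) and 0.31 at day 30 (SE 0.24, adjusted p = 0.520). CYBA was higher in 5 of 5, 4 of 5 and 3 of 5 pairs at these times. Replicate 1 carried the largest difference at each time (1.09, 1.13 and 1.11), and without it the changes were 0.33, 0.22 and 0.11.

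NCF1, the organizer that tethers the cytosolic subunits to CYBA once it is phosphorylated, differed more from array to array than either membrane subunit. Its brightest probe, probe 1, read 4.17, 3.49, 4.11, 2.58 and 4.13 before irradiation. At day 2 it read 4.86, 3.68, 5.36, 3.52 and 4.49, so that replicates 1, 3 and 5 exceeded every pre-irradiation array. At day 5 it read 5.36, 3.68, 4.06, 2.96 and 4.40, and at day 30 it read 5.50, 3.98, 3.25, 3.95 and 4.10. The group means were 3.70 ± 0.68, 4.38 ± 0.78, 4.09 ± 0.89 and 4.16 ± 0.82 in the order of time (SD, n = 5), and the groups overlapped throughout. Probe 1 was 0.69 higher at day 2 (SE 0.19, a fold of 1.61, adjusted p = 0.207 from limma), 0.40 higher at day 5 (SE 0.20, adjusted p = 0.507) and 0.46 higher at day 30 (SE 0.33, adjusted p = 0.496).

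The other 3 NCF1 probes gave 0.85, 0.89 and 0.83 at day 2, with unadjusted p-values of 0.00681, 0.00652 and 0.00786 and adjusted p-values between 0.204 and 0.213 from limma. In 5 of 5 pairs each of the 4 probes was higher at day 2. Together with CYBA that made 5 of the 10 member probes higher in every pair, beside 6.17% of all tested probes with 5 complete pairs. The gains were uneven: for probe 2 replicates 1, 3 and 4 differed by 1.34, 1.29 and 1.24, and replicates 2 and 5 by 0.29 and 0.10. At day 30 the pairs disagreed, since probe 1 was 1.33 and 1.37 higher in replicates 1 and 4 and 0.86 lower in replicate 3 (difference of -0.86). The probe of the copy NCF1B gave 0.80 at day 2 (SE 0.27), 0.73 at day 5 (SE 0.21) and 0.88 at day 30 (SE 0.34), with adjusted p-values of 0.252, 0.337 and 0.241 from limma, and r with the NCF1 probes was between 0.934 and 0.960.

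NCF4, the cytosolic subunit that binds phosphatidylinositol 3-phosphate on phagosomes, had the largest main-probe change of the 5 genes at each time. It read 3.22, 3.25, 3.28, 1.87 and 3.30 before irradiation, where replicate 4 stood far below the other arrays. At day 2 it read 4.51, 3.07, 4.82, 2.97 and 3.74. At day 5 it read 4.56, 3.06, 3.28, 2.80 and 4.30, and at day 30 it read 5.25, 3.69, 3.07, 3.25 and 3.67, with replicate 1 far above the rest. Replicates 1, 3 and 5 at day 2 and replicates 1, 2 and 5 at day 30 exceeded every pre-irradiation array. The means were 2.98 ± 0.62, 3.82 ± 0.83, 3.60 ± 0.78 and 3.78 ± 0.86 (SD, n = 5).

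The log2 fold change of NCF4 was 0.84 at day 2 (SE 0.26, a fold of 1.79, adjusted p = 0.235), 0.62 at day 5 (SE 0.25, adjusted p = 0.426) and 0.80 at day 30 (SE 0.32, adjusted p = 0.248), all from limma. It was higher in 4, 3 and 4 of 5 pairs. The call at day 2 depended on replicate 2. Without replicate 2, in which NCF4 was 0.18 lower (difference of -0.18), the change was 1.09 and NCF4 passed the threshold with an adjusted p of 0.0869 from limma, as the single member probe to do so, where 2.95% of all tested probes passed. With each of the other replicates left out it was between 0.66 and 0.94 and did not pass.

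RAC2, the GTPase that switches the assembled complex on and is expressed in lymphocytes as well as in phagocytes, had the narrowest range over the arrays. Probe 1, the brightest, read 6.70, 6.58, 6.44, 6.64 and 6.39 before irradiation and 6.40, 6.51, 6.80, 6.34 and 6.25 at day 2. At day 5 it read 6.65, 6.31, 6.20, 6.35 and 6.18, and at day 30 it read 6.54, 6.45, 6.02, 6.53 and 6.20. The means were 6.55 ± 0.13, 6.46 ± 0.21, 6.34 ± 0.19 and 6.35 ± 0.23 (SD, n = 5). By these means pre-irradiation was the highest group, whereas it was the lowest for NCF1, NCF4, CYBA and CYBB. The differences from pre-irradiation were -0.09 (SE 0.16), -0.21 (SE 0.13) and -0.20 (SE 0.16) at days 2, 5 and 30, with adjusted p-values from limma of 0.821, 0.578 and 0.537. Probe 1 was lower in 4, 5 and 5 of 5 pairs, but by at most 0.42 (a difference of -0.42). RAC2 probe 2 gave 0.17, -0.01 and -0.13, and probe 3 gave -0.0048, 0.06 and 0.05, so the probes did not share a direction.

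**Figure D2:**
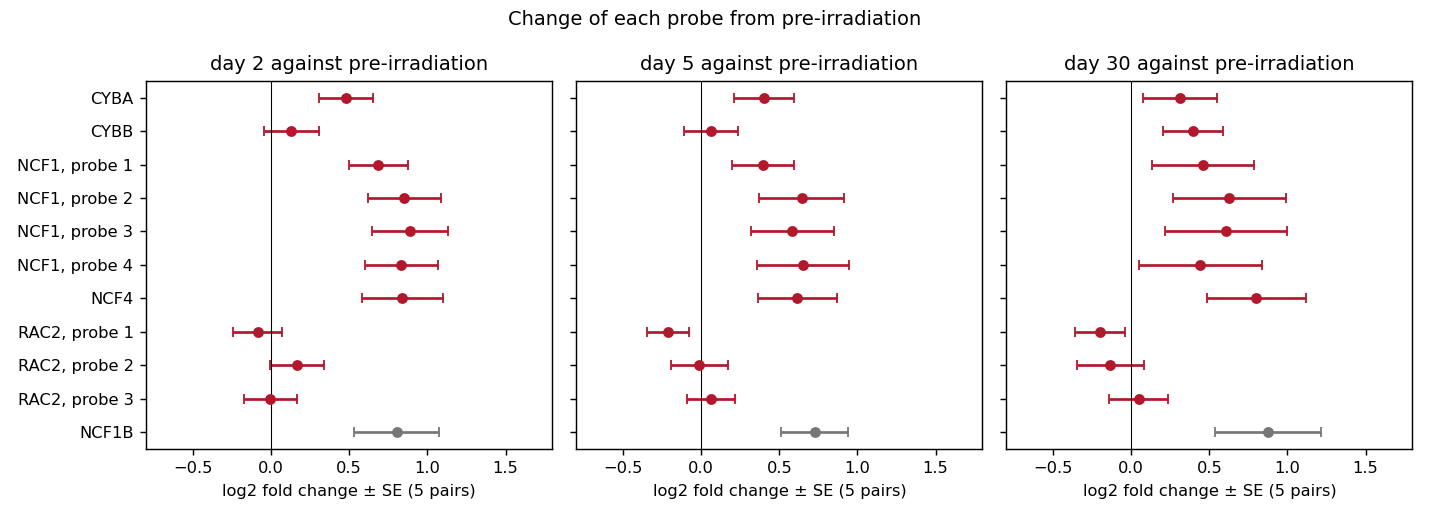
Log2 fold change from pre-irradiation (x axis, 5 pairs) of each member probe (red) and of the NCF1B copy (grey), with limma's standard error as bars, at day 2, day 5 and day 30. All 4 NCF1 probes and NCF4 lie right of 0 at each day, and the 3 RAC2 probes lie between -0.21 and 0.17.

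To set the subunits against each other without the constant subtracted from each array, which cancels between 2 genes of 1 array, the change of one gene minus the change of another was computed in each pair, for all 10 pairs of members at 3 times (30 comparisons). At day 2 the change of NCF1 exceeded that of RAC2 by 0.77 ± 0.39 (SD, n = 5 pairs), in 5 of 5 pairs, with an exact sign-flip permutation p of 0.0625, two-sided, which is the smallest that 5 pairs can give, and 0.268 after adjustment over the 30. NCF4 exceeded RAC2 by 0.93 ± 0.69 at day 2 (4 of 5 pairs, exact permutation p = 0.125), by 0.83 ± 0.62 at day 5 (5 of 5 pairs, exact permutation p = 0.0625) and by 1.002 ± 0.82 at day 30 (5 of 5 pairs, exact permutation p = 0.0625). CYBB changed less than NCF1 at day 2 in 5 of 5 pairs, by -0.56 ± 0.70 (exact permutation p = 0.0625), while at day 30 the difference was -0.07 ± 0.94 (exact permutation p = 0.750). The changes of CYBA and NCF1 at day 5 differed by 0.0061 ± 0.08 (SD, n = 5 pairs, range -0.09 to 0.09). The smallest value after adjustment was 0.268. With 5 pairs none of the 30 could reach a p under 0.05, so these p-values cannot decide whether the members differ.

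With 1 replicate left out, the change of NCF1 minus that of RAC2 lay between 0.66 and 0.90 at day 2, 0.45 and 0.72 at day 5 and 0.46 and 0.94 at day 30, and at day 2 it was 0.76 with quantile normalization and 0.78 with normexp background correction. With normexp background correction the changes at day 2 were 0.18 for NCF1, 0.35 for NCF4, -0.04 for CYBA, -0.35 for CYBB and -0.60 for RAC2. The median of all tested probes moved from -0.04 to 0.17 with that correction, and relative to it NCF1 differed by 0.02 and NCF4 by 0.18. The correction shifted the members on the array of day 2 replicate 1 by -2.41 (median over the main probes of the 5 genes), on that of day 2 replicate 3 by -1.11 and on that of day 30 replicate 1 by -1.06, against shifts between -0.68 and -0.30 on the other 17 arrays. These are the arrays on which NCF1 and NCF4 read highest at their time.

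At day 5 the comparison asks what was left after the first days. None of the 10 probes was called, as was none of all tested probes (0%, smallest adjusted p of any member 0.426, limma). At an unadjusted p under 0.05, 2 of 10 member probes were higher, NCF1 probe 2 (0.64, SE 0.27) and NCF4, beside 7.35% of all tested probes. NCF1 probes 2, 3 and 4 were higher in 5 of 5 pairs, beside 7.24% of all tested probes. Without replicate 1 NCF1 probe 1 differed by 0.20 and the member count at an unadjusted p under 0.05 was 0. Without replicate 3, whose day 5 array had 67.3% of its spots well above background, that count was 4. Of all 19961 tested probes, 1897 reached that p without replicate 1, 1852 without replicate 3 and 2230 in the main fit.

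At day 30 again 0 of the 10 probes were called (0% of all tested probes, smallest member adjusted p 0.248, limma). NCF4 was the probe with an unadjusted p under 0.05 (adjusted p = 0.248 from limma), beside 7.43% of all tested probes that were higher at that p. CYBB was higher in 5 of 5 pairs, beside 7.41% of all tested probes. Replicate 3 was lower at day 30 than before irradiation for both NCF1 and NCF4. Without it, NCF4 differed by 1.05 and NCF1 by 0.79, and 4 of 10 member probes had an unadjusted p under 0.05. Without replicate 1 or 4 that count was 0, with NCF1 at 0.24 and 0.23 and NCF4 at 0.49 and 0.65. Of all 19961 tested probes, 2918 reached that p without replicate 3, 2788 without replicate 1 and 2924 without replicate 4. In the main fit 3496 did.

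In no comparison with pre-irradiation were the groups of any member probe free of overlap, whereas 0.536%, 0.326% and 0.852% of all tested probes with complete pairs lay wholly above their pre-irradiation arrays at days 2, 5 and 30. Over the 5 genes the median log2 fold change was 0.48, 0.40 and 0.39 at the 3 days, beside -0.04, 0.03 and -0.02 over all tested probes. The median of the 5 genes was -0.041 at day 2 with normexp, where that of all tested probes was 0.17, and with 1 replicate left out it was as low as 0.33, 0.20 and 0.24 at the 3 days.

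**Figure D3:**
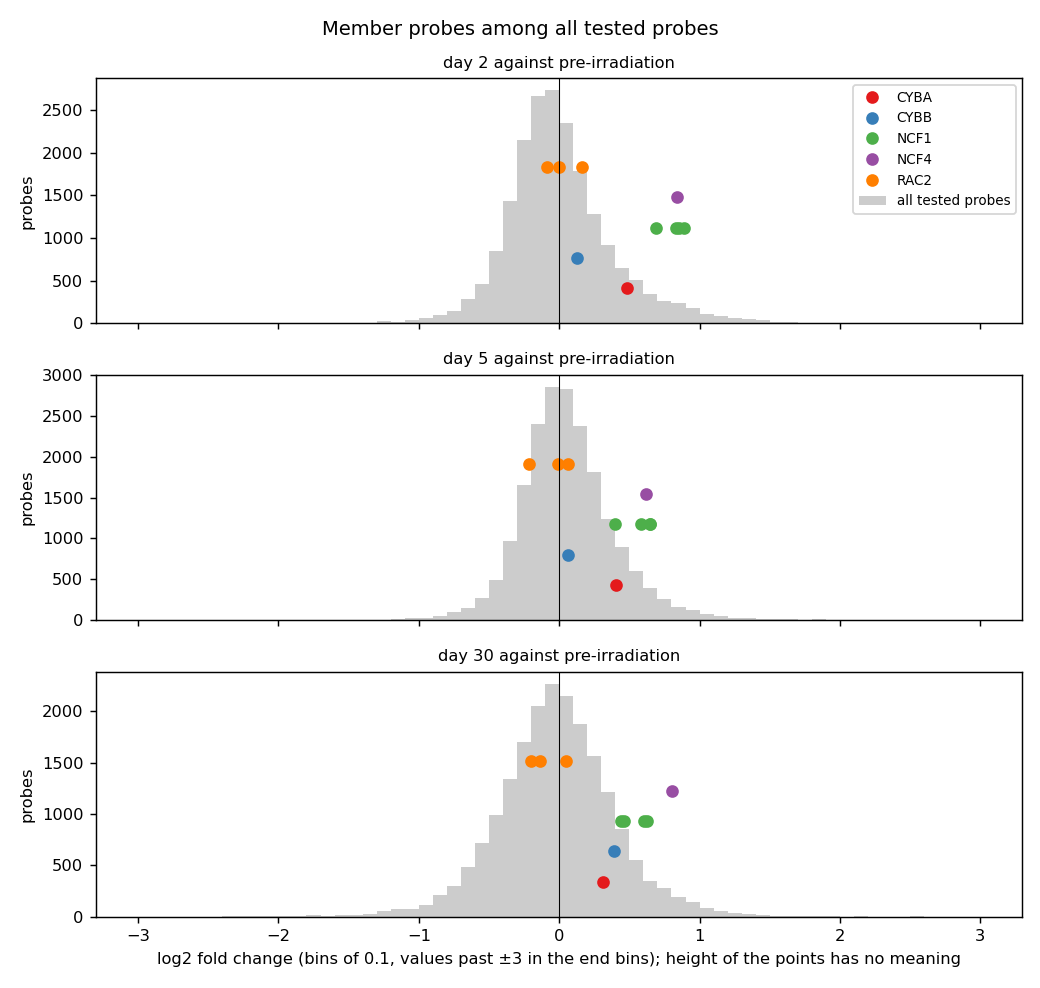
Distribution of the log2 fold changes of all 19961 tested probes (grey bars, probes per bin of 0.1) at each day, with the member probes as colored points whose height has no meaning. NCF1 and NCF4 lie in the upper tail at day 2, and CYBB and RAC2 lie within the bulk.

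The days were also compared with each other, which asks whether a level had moved on between the time points. None of the member probes was called between day 5 and day 2 (0% of all tested probes), day 30 and day 2 (0.0501%) or day 30 and day 5 (0%). An unadjusted p under 0.05 was found for 0 of 10 member probes in each comparison, beside 3.56%, 12.8% and 8.48% of all tested probes, and the smallest adjusted p of a member was 0.487 (limma). The largest member differences were -0.39 and 0.33, between day 30 and day 2 and between day 30 and day 5, the first for NCF1 probe 4 and the second for CYBB.

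Arrays shared slides, 4 to a slide, and each of the 5 slides held 1 array of each group, always at the same position, so that position on the slide and group cannot be told apart. Replicate numbers did not follow the slides. With the slide in place of the replicate number as the block, 2, 0 and 0 member probes had an unadjusted p under 0.05 at days 2, 5 and 30. Without any block these counts were 3, 0 and 0. Of all 19961 tested probes, 2372, 1001 and 2161 reached that p with the slide block and 2191, 858 and 2929 without any block. In the main fit 2997, 2230 and 3496 did. Within the slides, day 2 minus pre-irradiation was positive on 3 of 5 slides for NCF1 probe 1 (range -0.65 to 2.27), on 3 of 5 for NCF4 (-0.25 to 2.64), on 3 of 5 for CYBA (-0.31 to 1.53), on 4 of 5 for CYBB (-0.46 to 0.44) and on 2 of 5 for RAC2 probe 1 (-0.36 to 0.41).

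Among the proteins that complete or serve the complex, 6 of 7 listed gene symbols were on the array and tested. RAC1, the GTPase that can take the place of RAC2, differed by 0.35, -0.00072 and 0.21. C17orf62, the chaperone of cytochrome b558 now named CYBC1 and listed under each of these symbols, differed by 0.23, 0.06 and 0.03. HVCN1, the proton channel that balances the charge moved by the oxidase and is also abundant in B cells, differed by -0.54, -0.61 and -0.52 (SE 0.20, 0.17 and 0.22, unadjusted p = 0.0287, 0.00694 and 0.0412 from limma), with adjusted p-values of 0.285, 0.326 and 0.266. At an unadjusted p under 0.05, 1 of the 6 partners was higher and 1 lower (HVCN1) at day 2, beside 8.47% and 6.55% of all tested probes. The higher one was RAP1A, a small GTPase that associates with cytochrome b558, at 0.45, named after its values were seen. At each later day 0 were higher and 1 lower. Of all tested probes 7.35% were higher and 3.82% lower at day 5, and 7.43% and 10.1% at day 30. None of the 6 was called at any day.

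Receptors, kinases and exchange factors that trigger the oxidase made up a list of 24 genes, of which 22 were tested. At day 2 20 of them were higher and 2 lower, with a median of 0.31, and 8 were higher at an unadjusted p under 0.05 and 0 lower. At day 5 17 were higher with a median of 0.10 (2 higher and 1 lower at that p), and at day 30 17 were higher with a median of 0.21 (3 higher and 0 lower). Of all tested probes 8.47%, 7.35% and 7.43% were higher at that p at days 2, 5 and 30, and 6.55%, 3.82% and 10.1% lower. The 2 of 22 higher at day 5 lay near that share. ITGAM and ITGB2, the chains of the integrin Mac-1 through which neutrophils adhere and start the burst, differed by 0.91 and 0.30 at day 2, by 0.19 and -0.07 at day 5 and by 1.01 and 0.48 at day 30. None of the 22 was called at any day.

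Of the 8 transcription factors known to act on oxidase genes, all tested, 6 were higher at day 2 (median 0.47), 5 at day 5 (median 0.23) and 7 at day 30 (median 0.22). At an unadjusted p under 0.05, 4, 1 and 3 were higher and 0 lower. Of all tested probes 8.47%, 7.35% and 7.43% were higher at that p, and 6.55%, 3.82% and 10.1% lower. SPI1 (PU.1), a myeloid factor that drives CYBB and NCF1, differed by 0.53 at day 2 (SE 0.15, adjusted p = 0.208 from limma), 0.40 at day 5 and 0.33 at day 30. The enzymes that use or remove the products of the oxidase showed no common direction, with 4, 6 and 5 of 9 genes higher and medians of -0.10, 0.08 and 0.18. At an unadjusted p under 0.05, 1, 0 and 1 of them were higher and 1, 0 and 1 lower at the 3 days. MPO, which turns peroxide into hypochlorous acid, differed by 0.69, 0.49 and 0.95, and SOD2, the mitochondrial superoxide dismutase, by 1.12, 0.58 and 0.68, with 0 of the 9 called at any day. Of 10 genes of the other NADPH oxidases 3 had a tested probe, named here after their values were seen (NOX1, DUOXA1 and NOXA1), all 3 had differences below 0 at days 2 and 30, and 0 were called.

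Whole blood mixes cell types, and in these bulk samples a change in the number of cells of a type and a change in the RNA of each cell cannot be told apart. The neutrophil markers moved with the cytosolic subunits. Of 14 listed neutrophil markers 11 were tested, and all 11 were higher at each day, with medians of 0.96, 0.85 and 1.11. At an unadjusted p under 0.05, 8, 10 and 8 were higher, beside 8.47%, 7.35% and 7.43% of all tested probes. MMP8 and ELANE were on the array but too dim to test. The summed level of the 11 lay between 7.22 and 9.10 before irradiation, 8.48 and 10.25 at day 2, 8.19 and 9.78 at day 5 and 8.69 and 10.67 at day 30. Of 10 monocyte markers 8 were tested, with 7, 7 and 8 higher and medians of 0.61, 0.39 and 0.63, and their summed level ran from 6.63 to 8.16 before irradiation and from 7.66 to 8.44 at day 2, from 6.69 to 8.26 at day 5 and from 7.63 to 8.51 at day 30. CTSS was on the array and too dim to test.

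Lymphocyte markers ran the other way. All 8 T cell markers were lower at day 2 (median -0.48), 7 at day 5 (median -0.27) and 8 at day 30 (median -0.32), and their summed level lay between 6.69 and 7.28 before irradiation, 6.29 and 6.86 at day 2, 6.03 and 7.59 at day 5 and 6.07 and 7.03 at day 30. All 8 NK cell markers were lower at day 2 (median -1.37), with summed levels of 4.46 to 5.83 before irradiation and 3.69 to 4.31 at day 2, and 8 were lower at day 5 (median -0.73) and 4 at day 30 (median -0.01). KLRB1 of this list passed the threshold, 1.67 lower at day 2 (log2 fold change -1.67, adjusted p = 0.0965 from limma), and KLRB1, KLRD1 and GZMK passed it between day 30 and day 2 (2.29, 1.43 and 1.92 higher at day 30, adjusted p = 0.0940 for each, limma). All 6 tested B cell markers were lower at each day, with medians of -0.52, -0.49 and -0.49. All 8 platelet markers were higher at days 2 and 5 and 3 at day 30, with medians of 1.46, 0.46 and -0.25. The 8 erythroid markers had medians of -0.07, 0.09 and -0.80, and the 4 tested eosinophil markers -0.03, 0.28 and -0.07. The part of the cell mixture in the values of the oxidase subunits was not tested.

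Over the 20 arrays, which share animals, the mean of the 11 neutrophil markers followed NCF4 with Pearson r = 0.92, NCF1 with 0.86 and CYBA with 0.79. It followed CYBB with 0.45 and RAC2 with -0.04. After the mean of each group was removed these values were 0.92, 0.89, 0.78, 0.37 and 0.21. The 8 monocyte markers followed CYBA with 0.79, NCF4 with 0.76, CYBB with 0.75, NCF1 with 0.73 and RAC2 with -0.23. The T cell markers gave between -0.69 and -0.61 with CYBA, CYBB, NCF1 and NCF4 and 0.35 with RAC2, and the 6 B cell markers gave -0.73 with CYBA, -0.76 with NCF1, -0.80 with NCF4, -0.30 with CYBB and -0.07 with RAC2. Among the subunits themselves NCF1 and NCF4 gave r = 0.94, CYBA and NCF1 0.90 and CYBA and NCF4 0.90, while CYBB gave between 0.24 and 0.40 with these 3 and RAC2 gave -0.51 with CYBB. All of these are descriptions over arrays, with no test.

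**Figure D4:**
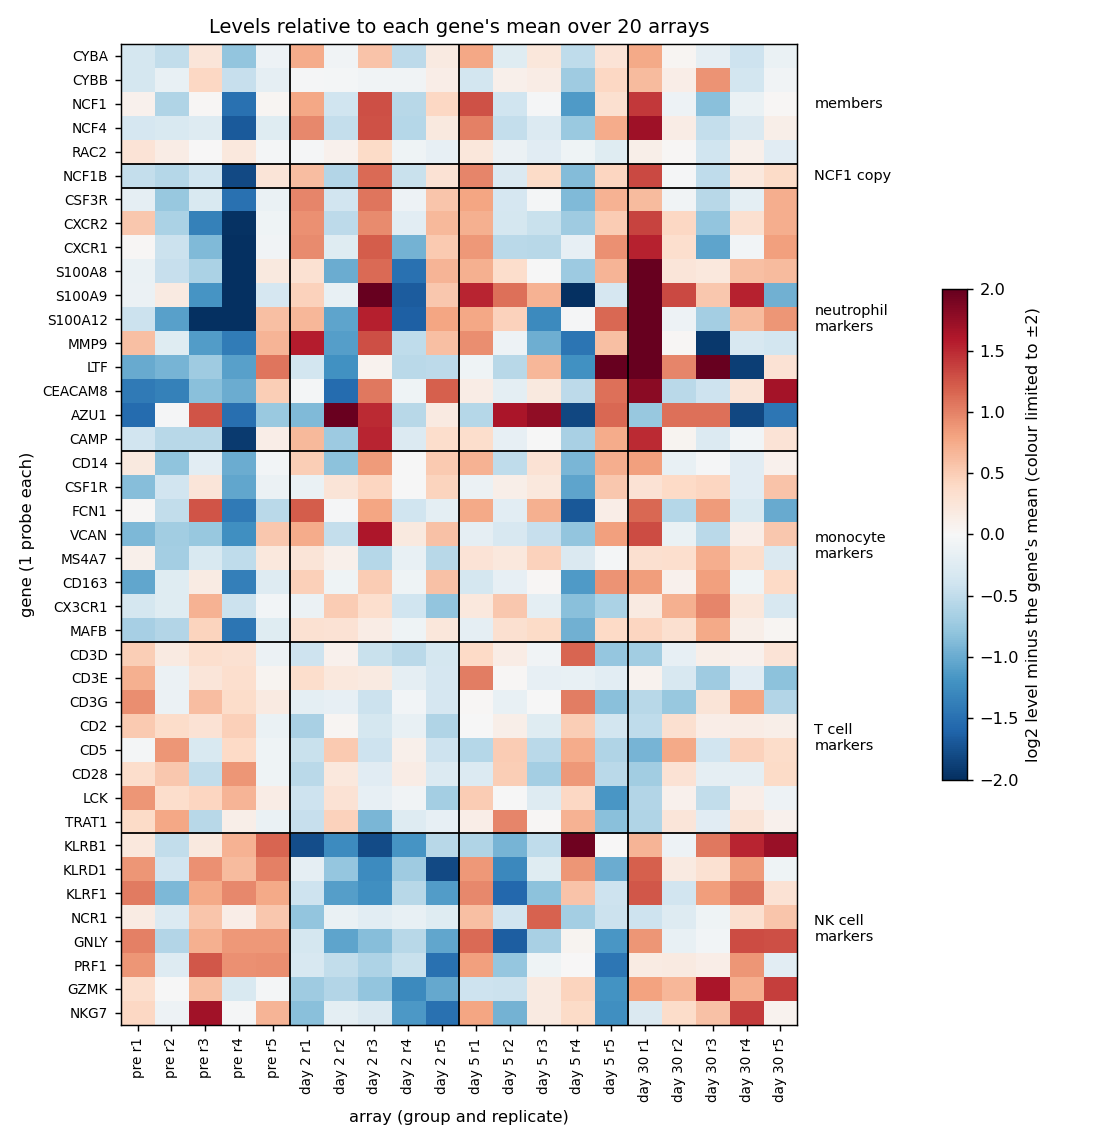
Level of 1 probe per gene on each of the 20 arrays (columns, by group and replicate) minus the gene's mean over all arrays (log2, colors limited to ±2), for the members, the copy NCF1B and the tested neutrophil, monocyte, T cell and NK cell markers (rows). On day 30 replicate 1 NCF1, NCF4, CYBA and all neutrophil markers but AZU1 lie above their means, and on pre-irradiation replicate 4 NCF1, NCF4, CYBA and all 11 neutrophil markers lie below.

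The 5 genes most like the mean of the subunits over the 20 arrays, among 15913 other genes with a value on every array, were CHMP2A (r = 0.948), SBNO2 (0.946), C19orf38 (0.945), C1orf162 (0.937) and CSF2RB (0.937). The subunits were not scaled to equal spread in that mean. NCF1 and NCF4, which spread most, therefore weigh more in it than RAC2, which spread least. CSF2RB encodes the shared receptor chain for GM-CSF, interleukin 3 and interleukin 5, and CHMP2A a subunit of the ESCRT-III membrane scission machinery. NCF1B ranked at place 21 (r = 0.916) and HVCN1 gave r = -0.63.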

How the data were processed

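Whole blood RNA of rhesus macaques was measured on 20 arrays, 5 per group. The authors deposited each array's Feature Extraction output (version 12.0.2.2 per the file headers, 10.7 per the labels), whose processed signal intensities have the background removed but no scaling from array to array. A table of log2 values for 5884 probes was deposited too. Where a probe has 1 spot, its value there is the array's log2 processed signal shifted by a fixed amount for that array (100% of values within 0.001), and the origin of the shift is not given in the sources used here. Its column medians lay between 7.55 and 7.83 over the 20 arrays.

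Here control spots and spots marked as outliers were left out, spots of a probe were averaged, and each array's 75th percentile over all other spots was subtracted. Groups came from the labels. Probes well above background on at least 5 arrays were fitted in limma 3.58.1 (R 4.3.3) on the 10 arrays of each comparison, with the replicate number as a block, because the study paired its comparisons, and called where p was under 0.005 and the FDR (Benjamini-Hochberg) under 10%. The main probe of a gene is its brightest with a value on most arrays. Over 30 same-number pairs of arrays the deviations from the group means correlated with a median of 0.285 (-0.163 to 0.654, 25 over 0.1). Each array's correlations with the other groups' arrays were also averaged by replicate number. For 17 of 20 arrays the highest of these averages was that of their own number. The pairing is therefore likely but not established for every pair. In the main fit a limma p-value sets the mean pair difference against the spread of the pair differences, moderated over all probes. The permutation p-values come from flipping the signs of the pair differences. The fit was tested on simulated data. The number of arrays limits the precision, and between 50.9% and 67.3% of spots were well above background. Other settings tried were quantile, median and normexp scaling (offset 50), flagged spots kept, 2 other filters, the deposited values, other blocks and fits, and each replicate left out. The members and the gene lists were chosen with earlier results of these data known. A gene of the partner list is not reported here. Named beside the members are RAC1, C17orf62, HVCN1, NCF1B, SPI1, MPO, SOD2, ITGAM and ITGB2, any list gene that was called, the 5 genes most like the members, and genes said to be named after their values were seen. Drawings used Python 3.11.15, pandas 2.3.3 and matplotlib 3.10.9.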

Additional observations from a re-analysis of the deposited data

Results flagged for a closer look

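Within groups of 5 arrays, 5 of 40 groups of member probes held an array set apart from the others by more than Dixon's criterion at the 95% level, which chance flags in about 1 of 20 groups. CYBB was highest in day 2 replicate 5, at 4.23, where the next array read 4.08. NCF4 was lowest in pre-irradiation replicate 4, at 1.87, where the next read 3.22, and highest in day 30 replicate 1, at 5.25, where the next read 3.69. The NCF4 differences of both pairs rest on these arrays, and without replicate 4 or replicate 1 the change at day 30 was 0.65 and 0.49. RAC2 probe 2 was lowest in pre-irradiation replicate 1, at 3.45, where the next read 3.78, and highest in day 5 replicate 1, at 4.14, where the next read 3.72.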

How the results depend on the processing

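Directions of single genes are given here for the main probe of each gene. Among the differences from pre-irradiation, the main probes of NCF1, NCF4 and RAC2 kept their direction at each day under every alternative run. CYBA kept it under all but normexp at day 2 (-0.041). This does not cover the other RAC2 probes, which did not share a direction with RAC2 probe 1 at each day. CYBB turned to -0.35 at day 2 with normexp, and at day 5 to -0.020 with quantile normalization, -0.059 with array medians and -0.069 without replicate 5. The number of member probes called stayed at 0 throughout, except at day 2 without replicate 2, where it was 1 (range 0 to 1 with 1 replicate left out). Member probes with an unadjusted p under 0.05 at day 2 numbered 0 with normexp, 3 with no replicate block and 2 with the slide as a block (5 to 6 with 1 replicate left out). Of all 19961 tested probes, 2460, 2191 and 2372 reached that p in these 3 settings, against 2997 in the main fit. At day 5, against 2, they numbered 0 with array medians, with no filter on dim probes, with the deposited log2 values (6 of the 10 probes), with no replicate block and with the slide as a block, 1 with all 20 arrays in 1 fit and with each probe tested on its own, 4 with normexp and with probes well above background on all 20 arrays, and 5 with an intensity trend (0 to 4 with 1 replicate left out). Of all tested probes at day 5, 2230 of 19961 reached that p in the main fit. With array medians 1995 did, with no replicate block 858, with the slide block 1001, with normexp 2083 and with an intensity trend 2400. All 20 arrays in 1 fit gave 2028, and each probe tested on its own gave 2040. Where the set of tested probes differed, 2497 of 34127 reached it with no filter on dim probes. Among probes well above background on all 20 arrays 1889 of 15322 did, and with the deposited log2 values 819 of 5676. At day 30, against 1, the member probes numbered 2 with normexp and 0 with no replicate block and with the slide as a block (0 to 4 with 1 replicate left out). Of all tested probes 3704, 2929 and 2161 reached that p in these 3 settings, against 3496 in the main fit. Without 1 replicate CYBB at day 5 ranged from -0.069 to 0.14. Between the days, where no member difference passed a threshold, directions turned. With normexp, day 5 minus day 2 became 0.42 for CYBA, 0.40 for CYBB, 0.21 for NCF1, 0.28 for NCF4 and 0.38 for RAC2, day 30 minus day 2 became 0.16 for CYBA, 0.12 for NCF1, 0.30 for NCF4 and 0.22 for RAC2, and day 30 minus day 5 became -0.10 for NCF1 and -0.16 for RAC2. With array medians NCF4 became 0.0029 at day 30 minus day 2 and CYBA 0.10 at day 30 minus day 5. With 1 replicate left out, day 5 minus day 2 ranged from -0.16 to 0.074 for CYBB (turned without replicates 1 and 4) and -0.42 to 0.11 for NCF4 (without 3), day 30 minus day 2 from -0.44 to 0.24 for NCF1, -0.23 to 0.39 for NCF4 and -0.19 to 0.053 for RAC2 (without 3), and day 30 minus day 5 from -0.17 to 0.28 for NCF1 (without 4) and -0.031 to 0.059 for RAC2 (without 2 and 4). The cause was not tested. The median signal was 1.68 to 2.46 times the background.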
